A study of Mus musculus with 24 samples.

Results

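Restimulation was followed in CD4+ T cells that had been primed with 0.25 µM I-BET-762, by comparing 3 arrays of restimulated cells with 3 arrays of resting cells. The arrays were chosen by the state and compound in their labels, and they are 6 of the 24 arrays of the series. All 18193 genes with a value were compared. The cells came from 2D2 mice on the C57BL/6 background, which carry a transgenic T cell receptor (TCR) specific for myelin oligodendrocyte glycoprotein. They were primed for 48 h in Th1 conditions with antibodies to CD3 and CD28 fixed to the plate, with the compound present, and were then expanded for 2 days off the antibodies. Cells taken at that point are called resting here, although they are recently divided Th1 cells and not naive ones. Activated cells received the same antibodies again for 4 h. Beside it stand the responses of cells primed with DMSO, with the control compound Control-768 or with 0.5 µM I-BET-762, each from 3 resting and 3 activated arrays. Neither the concentration of Control-768 nor whether compound was present during restimulation is given in the sources used here. It was also not established whether resting and activated cells of 1 number came from 1 culture.

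I-BET-762 occupies the acetyl-lysine pockets of the BET proteins, which sit on acetylated histones at active genes and bring in the elongation factor P-TEFb. When a primed T cell meets its antigen again, TCR and CD28 signals activate NFAT, AP-1 and NF-kB within minutes. Cytokine genes are then switched on over a few hours, genes of quiescence and migration are shut off, and ribosome production increases ahead of cell division. Per the series title, the study asks how BET and c-Myc inhibitors affect cytokine production and autoimmunity.

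Values are array intensities, a fluorescence measure on a linear scale in arbitrary units, so changes are taken within a gene. Marker means under 50, summed intensities, percentiles and the word dim do set different genes side by side. In such units they are only rough guides. Changes are differences of log2(intensity + 16) with their standard error (SE), tested with limma and adjusted over all genes by the Benjamini-Hochberg method. A gene is called changed at an adjusted p under 0.05. The labels speak of biological replicates without saying whether these were separate mice, so p-values measure the spread between 3 samples a group. Array medians lay between 37.4 and 44.4. Arrays numbered 3 deviated more from their group means than the others, with an SD of 0.26 (resting) and 0.23 (activated) at 0.25 µM against 0.17 to 0.20 for the other 4 arrays. The Gapdh control probe set at the 3' end exceeded that at the 5' end, a sign of shortened RNA, by 0.29 log2 on the activated array numbered 3 while this difference was between -0.06 and 0.08 on the other 5. The other activated arrays numbered 3 had 0.28 (Control-768), 0.31 (0.5 µM) and 0.15 (DMSO). The part of this difference in the results was not tested. Markers of CD4 T cells were clearly present, with mean intensities over the 24 arrays of 702 for Cd4 and 2383 for Cd3e. Of the measured markers, 5 of 5 for B cells, 6 of 7 for myeloid cells and 3 of 3 for NK cells had a mean under 50, as did 3 of 6 of the dendritic cell and MHC class II list. Neither CD8 T cell marker did, with means of 81.9 for Cd8a and 553 for Cd8b1; their summed intensity was 458 to 632 in resting and 615 to 942 in activated cells, neither gene passed the test, and their part in the results was not tested. Their summed intensity in resting and activated cells at 0.25 µM was 77.1 to 105 and 88.2 to 107 for B cells, 250.4 to 259 and 233 to 261 for myeloid cells, and 1549 to 2161 and 1064 to 1651 for dendritic cells. Within that last list Cd74, the invariant chain of MHC class II, alone changed. It rose by 1.51 ± 0.31 (adjusted p = 0.00328), from 19.6, 29.5 and 59.9 to 120, 85 and 190.5. The class II gene H2-Ab1 had the highest mean of that list (1389 over the 24 arrays) and did not pass. Its mean was 1602 in resting and 1008 in activated cells at 0.25 µM, a change of -0.71 (adjusted p = 0.353). Which cells its signal came from was not tested.

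Restimulation changed 2628 of the 18193 genes (14.4%), with 1283 higher (7.05%) and 1345 lower (7.39%). Of these, 774 changed at least 2-fold (4.25%), 424 upward (2.33%) and 350 downward (1.92%). The arrays of the states did not overlap for 2611 of the changed genes, and for 6346 of all genes (34.9%). The largest rises were those of the cytokine genes Il2, Il3, Il13 and Il24, the chemokine genes Ccl3 and Ccl4, the TNF family ligand Tnfsf11 and Cdk5r1, an activator of the kinase CDK5. The largest falls were those of Klf2, Ccng2, Itih5, Pik3ip1, Nipal3, Ripor2, Narf and Rasa3, several of them genes of quiescent lymphocytes. Genes past 2-fold were often most extreme on the array numbered 3: of the 424 that rose, 293 (69.1%) had their highest activated value there, against 33.4% over all genes. Activated replicate 2 stood at the other end. It held the lowest activated value for 359 of the 424 (84.7%, against 33.7% over all genes). Of the 350 that fell, 257 had their highest activated value on it (73.4%, against 33.0%). Without the arrays numbered 3 of the compared groups, the count of changed genes was 715, of which 309 were higher and 406 lower. That fit had 2 arrays in each compared group and kept all arrays of the other groups. Without activated replicate 3 alone it was 1369, without activated replicate 1 it was 1631, and without activated replicate 2 it was 2155. Of the 108 changed genes that are named, 55 kept the call under all 18 alternative settings; of the 13 named genes that are not changed, 6 gained it under some. Not every loss is given below, so a call without such a remark may still have been lost under some setting. Counts for lists without both arrays numbered 3 come from a fit on fewer arrays. All list counts below stand beside the 7.05% of all genes that rose and the 7.39% that fell.

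**Figure D1:**
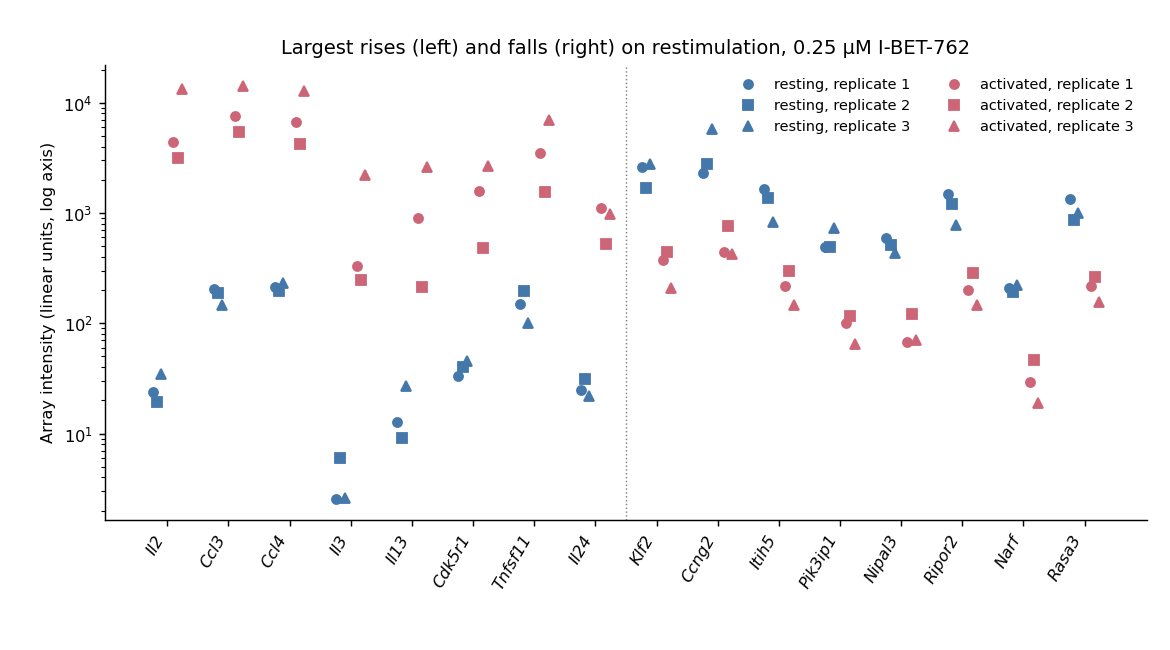
Intensity of the 8 largest rises (left of the dotted line) and the 8 largest falls (right) in each array of cells primed with 0.25 µM I-BET-762, on a log axis. Each point is 1 array, resting in blue and activated in red, with a symbol for each replicate number; the states do not overlap for any of the 16 genes, and the activated array numbered 3 is the highest for 7 of the 8 rises.

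Of 20 cytokine genes measured, 9 rose and 0 fell, with a median log2 change of 1.31 over the list and -0.018 over all genes. When both arrays numbered 3 were left out, 5 rose and 0 fell, and the median was 0.54. Il2 encodes the growth factor that activated T cells make for themselves and their neighbours. Its intensity was 23.8, 19.3 and 34.8 in resting cells and 4377, 3140 and 13361 in activated cells. The resting values lay at background, and the activated ones stood at the 95.57th percentile of all probe sets or above. The fitted change was 7.10 ± 0.60 log2 (adjusted p = 9.01e-07); with resting values at background its size depends on the added constant, and was 6.0 with 64 and 7.76 with 1. Ifng, the effector cytokine that defines Th1 cells, was already expressed at rest, at 1924, 545 and 1737, and reached 16753, 14301 and 18184. The groups did not overlap. The activated values stood at percentiles of 99.67 to 99.97, and the largest value of an array was 20543 to 21728 over the series. Whether the signal neared saturation, which can understate a rise, was not tested. Ifng rose by 3.72 ± 0.41 (adjusted p = 1.24e-05).

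The upstream region of Il2 is shown because Il2 had the largest fitted rise. It is the 250 bases before the annotated start from RefSeq (GRCm38.p6), chr3:37125955-37126204, minus strand. Capitals mark 6-base matches to the NFAT core GGAAAA on either strand, and no match to the NF-kB consensus, to AP-1 (TGANTCA) or to the cyclic AMP response element (CRE, TGACGTCA) was in this window.
Il2: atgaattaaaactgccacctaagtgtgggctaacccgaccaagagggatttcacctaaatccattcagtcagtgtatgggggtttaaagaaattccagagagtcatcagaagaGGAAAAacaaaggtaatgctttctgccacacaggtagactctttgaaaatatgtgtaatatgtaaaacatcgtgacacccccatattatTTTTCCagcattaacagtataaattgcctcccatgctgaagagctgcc
The NFAT core matches begin 137 and 48 bases upstream of the start. Such a match stood in the 250 upstream bases of 21.8% of the 14452 measured genes with a RefSeq window, of 22.8% of the 346 that rose at least 2-fold and of 21.8% of the 280 that fell at least 2-fold. The corresponding shares were 10.1%, 13.0% and 8.6% for the NF-kB consensus, 6.7%, 6.4% and 5.7% for AP-1, and 2.5%, 2.3% and 1.4% for CRE. Genes with several windows counted once, with a match in any of them.

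The other T helper cytokines ranged from strong and uniform to strong on a single array. Il24, a member of the IL-10 family, was at 25, 31.3 and 21.9 in resting cells and 1100, 521 and 981 in activated cells, a rise of 4.33 ± 0.36 (adjusted p = 6.47e-07). Il21, which helps B cells and sustains T cells, rose from 319, 295 and 689.7 to 1343, 2089 and 3004, by 2.29 ± 0.38 (adjusted p = 0.000697). Neither gene's groups overlapped. Il10, the anti-inflammatory cytokine that Th1 cells also make, went from 790, 240.2 and 415 to 5211, 2374 and 10523, by 3.51 ± 0.68 (adjusted p = 0.00212). Il13, best known as a Th2 cytokine, went from 12.6, 9.13 and 26.9 to 895, 215 and 2638, by 4.71 ± 0.87 (adjusted p = 0.00144). Both were highest on the activated array numbered 3, without overlap between the states.

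Growth factors for myeloid cells leaned most on that array. Il3, a growth factor of blood progenitors and mast cells, was at background in resting cells with 2.53, 6.0 and 2.61, and at 329, 248 and 2222 in activated cells, a fitted change of 4.90 ± 1.05 (adjusted p = 0.00392) that was 3.27 with an added constant of 64 and 6.99 with 1. Csf2, encoding GM-CSF, which makes myelin-reactive T cells encephalitogenic, was at 22.7, 19.5 and 15.2 and then at 206, 154 and 1572, a change of 3.48 ± 0.95 (adjusted p = 0.0172). Neither overlapped between the states, but the Csf2 call was lost without activated replicate 3 (adjusted p = 0.127), without resting replicate 3 (0.0538) and with an added constant of 64 (0.0672). Without both arrays numbered 3 the calls of Il3 (adjusted p = 0.0832), Il10 (0.0531) and Csf2 (0.237) were lost. The Th17 cytokine Il17a went from 12.1, 15.2 and 21.8 to 73.1, 117 and 122, a rise of 1.88 ± 0.49 (adjusted p = 0.0144; 0.0638 without activated replicate 3). The Th2 cytokine Il4 did not pass, at 1.59 ± 0.63 (adjusted p = 0.101), with 474 on activated array 3 against 58.1 and 81.6 on the others; a replicate block over all 24 arrays gave an adjusted p of 0.0385.

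Of 15 chemokines measured, 4 rose and 0 fell (26.7% called, against 14.4% of all genes), with a median of 0.48; without both arrays numbered 3, 3 rose. Ccl3 and Ccl4 encode the inflammatory chemokines MIP-1 alpha and MIP-1 beta. Ccl3 was at 206, 189.5 and 147 in resting and 7614, 5453 and 14266 in activated cells, and Ccl4 at 215, 197 and 233 and then 6743, 4234 and 12683. All 3 activated values stood far above all resting values for each, with rises of 5.43 ± 0.55 (Ccl3) and 4.95 ± 0.51 (Ccl4) at an adjusted p of 5.48e-06 for both. Cxcl10, a ligand of the Th1 chemokine receptor CXCR3, rose by 3.20 ± 0.72 (adjusted p = 0.00547), from 8.26, 3.58 and 116 to 485, 218 and 398.

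Ligands of the TNF superfamily, through which T cells signal to other cells by contact, rose in 7 of 13 cases and fell in 0, with a median of 1.03; without both arrays numbered 3, 4 rose. Tnf, the inflammatory cytokine, rose from 296, 214 and 304 to 1695, 1414 and 3349, by 2.83 ± 0.41 (adjusted p = 0.000234). Tnfsf11, encoding RANKL, which drives osteoclasts and dendritic cell survival, rose from 148, 195 and 101 to 3517, 1537 and 6958, by 4.40 ± 0.55 (adjusted p = 5.22e-05). Each gene's lowest activated value was several times its highest resting value. Tnfsf8, encoding CD30 ligand, rose by 2.41 ± 0.38 (adjusted p = 0.000383), and Cd70, the ligand of CD27, by 3.32 ± 0.70 (adjusted p = 0.00357), the latter at 363, 101 and 873 on the activated arrays. Lta, encoding lymphotoxin alpha, did not pass, at 0.85 ± 0.60 (adjusted p = 0.396). A replicate block within the compared groups alone gave an adjusted p of 0.0477.

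Receptors changed in both directions. Of 13 TNF receptors, 5 rose and 1 fell, 46.2% against 14.4% of all genes (1 and 1 without both arrays numbered 3). The costimulatory receptor 4-1BB, encoded by Tnfrsf9, rose by 1.44 ± 0.33 (adjusted p = 0.00605), its relative OX40, Tnfrsf4, rose by 0.80 ± 0.22 (adjusted p = 0.0167; lost under 6 of 18 alternatives), and the TNF receptor Tnfrsf1a fell by 0.80 (SE 0.13, adjusted p = 0.000459), from 571, 564 and 594 to 332, 385 and 266. The Tnfrsf9 call was lost without both arrays numbered 3 (adjusted p = 0.106), and its dimmest probe set gave -0.45. Of 23 cytokine receptors, 1 rose and 4 fell, 21.7% against the same 14.4% (0 and 1 without both arrays numbered 3). The IL-18 receptor chain Il18r1, through which Th1 cells respond to IL-18, rose by 1.0 ± 0.21 (adjusted p = 0.00395), while Il17ra, Il27ra and Ifngr1 fell. Without both arrays numbered 3 the calls of Il18r1 (adjusted p = 0.058), Il27ra (0.102) and Ifngr1 (0.181) were lost. Il17ra, a chain of the IL-17 receptor, fell by 0.90 (SE 0.15, adjusted p = 0.000559), Il27ra, the IL-27 receptor, by 0.64 (SE 0.14, adjusted p = 0.00528), and Ifngr1, the ligand-binding chain of the interferon gamma receptor, by 1.51 (SE 0.37, adjusted p = 0.0096; 0.0631 without activated replicate 3). The high-affinity IL-2 receptor chain Il2ra was at 1.08 ± 0.42 (adjusted p = 0.0977), with 4056, 3374 and 1396 in resting and 6239, 5916 and 4927 in activated cells, groups that did not overlap; it passed with the mean of all its probe sets (adjusted p = 0.0127) and with a replicate block over all 24 arrays (0.00466). Of 19 chemokine and homing receptors, 3 rose and 2 fell, 26.3% of the list (0 and 0 without both arrays numbered 3). S1pr4, a sphingosine phosphate receptor, fell by 1.15 (SE 0.29, adjusted p = 0.0107; 0.17 without both arrays numbered 3), the gut homing integrin Itgb7 by 0.84 (SE 0.22, adjusted p = 0.0151), and the follicular homing receptor Cxcr5 rose by 0.80 ± 0.22 (adjusted p = 0.0205); the last 2 calls were each lost under 4 of 18 alternatives. S1pr1, which guides T cells out of lymph nodes, did not pass, at -1.10 ± 0.54 (adjusted p = 0.197).

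Inhibitory receptors and their ligands rose in 5 of 11 measured genes and fell in 0 (median 0.14); without both arrays numbered 3, 1 rose, at a median of 0.04. Those named by the rule are ligands and a surface glycoprotein: Cd200 (0.83 ± 0.17, adjusted p = 0.00298), Pdcd1lg2, encoding the PD-1 ligand PD-L2 (1.75 ± 0.39, adjusted p = 0.00471), and Cd274, encoding PD-L1 (1.61 ± 0.40, adjusted p = 0.0102; 0.0718 without activated replicate 3). The receptor PD-1 itself, Pdcd1, rose by 1.48 ± 0.41 (adjusted p = 0.0203, and 0.12 without activated replicate 3). Without both arrays numbered 3 the calls of Pdcd1lg2 (adjusted p = 0.11), Cd274 (0.0623) and Pdcd1 (0.231) were lost. In the TCR complex and its proximal signalling chain, 4 of 19 rose and 4 fell; without both arrays numbered 3, 0 rose and 1 fell. Cd4, the coreceptor, fell by 0.80 (SE 0.18, adjusted p = 0.00592), from 914, 791 and 854 to 464, 485 and 502, with tight and separate groups. Its adjusted p was 0.0564 without both arrays numbered 3. Cd3g, a chain of the receptor complex, fell by 0.36 (SE 0.094, adjusted p = 0.014; lost under 5 of 18 alternatives), and Cd5, a brake on TCR signals, rose by 1.12 ± 0.34 (adjusted p = 0.0325; lost under 6, with 0.179 without activated replicate 3). Plcg1, a phospholipase downstream of the TCR, fell by 1.10 (SE 0.16, adjusted p = 0.000197), a call lost when all its probe sets were averaged (adjusted p = 0.223), and Malt1, which links the receptor to NF-kB, rose by 0.64 ± 0.14 (adjusted p = 0.00498; 0.245 with all its probe sets averaged and 0.0797 without both arrays numbered 3).

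The NF-kB pathway was the list with the largest share of changed genes, 16 of 18, all upward, with a median of 1.31 (13 and 1.55 without both arrays numbered 3). Nfkbid, an atypical nuclear inhibitor that acts at the Il2 gene, was at 355, 244 and 267 in resting and 2772, 1499 and 4906 in activated cells, a rise of 3.19 ± 0.48 (adjusted p = 0.00031). Nfkb2, the precursor of the p52 subunit, rose from 294, 209.6 and 391 to 1339, 1200 and 1776, by 2.23 ± 0.29 (adjusted p = 6.3e-05). Tnip1, which restrains the pathway with A20, rose from 1058, 977 and 1424 to 3571, 2471 and 3403, by 1.44 ± 0.18 (adjusted p = 6.04e-05). None of these overlapped between the states, and the list thus held subunits of the factor and its inhibitors alike. Rel, the c-Rel subunit needed for Il2, rose by 2.44 ± 0.61 (adjusted p = 0.0105; 0.0771 without activated replicate 3). Nfkbia, encoding the classical inhibitor I-kappa-B alpha, was at 5778, 5055 and 11108 and then at 12096, 11684 and 11854; its rise of 0.79 ± 0.26 (adjusted p = 0.0467) lost the call under 10 of 18 alternatives.

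The upstream 250 bases of Nfkbia and Nfkbid are shown because inhibitors of NF-kB were among the genes that moved together. They are from RefSeq (GRCm38.p6), with Nfkbia at chr12:55492648-55492897, minus strand, and Nfkbid at chr7:30422156-30422405, plus strand, the window with most NF-kB matches of the 3 annotated for Nfkbid. Capitals mark matches to the NF-kB consensus and, in Nfkbid, to CRE, on either strand.
Nfkbia: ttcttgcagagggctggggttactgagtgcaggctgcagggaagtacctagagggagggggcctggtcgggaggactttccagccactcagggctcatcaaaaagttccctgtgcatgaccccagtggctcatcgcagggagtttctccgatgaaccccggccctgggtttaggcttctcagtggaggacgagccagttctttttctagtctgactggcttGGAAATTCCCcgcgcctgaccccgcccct
Nfkbid: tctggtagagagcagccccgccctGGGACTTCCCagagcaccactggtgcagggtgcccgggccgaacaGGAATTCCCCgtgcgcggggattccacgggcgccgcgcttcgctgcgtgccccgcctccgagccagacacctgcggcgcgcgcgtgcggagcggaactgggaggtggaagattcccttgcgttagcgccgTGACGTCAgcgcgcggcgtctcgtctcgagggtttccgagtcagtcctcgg
The Nfkbia match begins 29 bases upstream of the start, those of Nfkbid 226 and 181 bases upstream, and the CRE match 51 bases upstream. An NF-kB consensus match stood in 7 of the 14 NF-kB pathway genes with a window (50%), against 10.1% of all measured genes; several of these genes are textbook targets of the factor, so the list is not a neutral sample.

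Of 29 immediate early and TCR-induced factors, 10 rose and 0 fell (6 and 0 without both arrays numbered 3). Irf8, an interferon regulatory factor, rose from 1534, 1514 and 1367 to 6416, 5616 and 6799, by 2.08 ± 0.18 (adjusted p = 1.06e-06). Batf, an AP-1 family partner of IRF factors in T cells, rose by 1.86 ± 0.19 (adjusted p = 6.74e-06), and Ier5, an early response gene, by 1.19 ± 0.16 (adjusted p = 7.32e-05). No activated value of Irf8 came near a resting one. Nr4a3, an orphan nuclear receptor that reports TCR signals, rose by 3.54 ± 0.75 (adjusted p = 0.00352), and Egr2, a zinc finger factor, by 1.95 ± 0.51 (adjusted p = 0.0142; 0.0903 without activated replicate 3). Myc did not pass, at 1.22 ± 0.63 (adjusted p = 0.217): its activated values of 8404, 8289 and 8124 all lay above the resting values of 5633, 5442 and 1438, but the resting array numbered 3 stood far below the others.

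Among 21 helper lineage factors 3 rose and 1 fell, 19.0% against 14.4% of all genes (3 and 0 without both arrays numbered 3). Tbx21, encoding T-bet, the master regulator of Th1 cells, rose from 1578, 1531 and 1656 to 4041, 3387 and 3878, by 1.23 ± 0.14 (adjusted p = 1.21e-05). Zeb2, a repressor induced by T-bet in effector T cells, rose from 93.3, 106 and 99.1 to 1187, 805 and 1700, by 3.37 ± 0.35 (adjusted p = 6.74e-06), and Eomes, the T-bet relative, from 39.1, 40.5 and 42.2 to 197, 87.9 and 404, by 1.89 ± 0.34 (adjusted p = 0.00119). The resting values of all 3 genes were tight, and no activated value overlapped them. Of 18 granzyme and cytotoxicity genes only Gzmc, a granzyme, passed, at 1.38 ± 0.45 (adjusted p = 0.0448), and it lost the call under 8 of 18 alternatives. Feedback regulators of MAP kinase and cytokine signals rose in 6 of 22 and fell in 1 (3 and 0 without both arrays numbered 3): Rgs16 and Rgs1, which turn off G protein signals, rose by 3.53 ± 0.52 (adjusted p = 0.00025) and 0.70 ± 0.11 (adjusted p = 0.000307), and the survival kinase Pim3 by 1.42 ± 0.27 (adjusted p = 0.00171).

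Of 25 genes of naive and quiescent lymphocytes, 7 fell and 2 rose, with a median of -0.25 and 10 positive estimates; without both arrays numbered 3, 3 fell and 1 rose. Klf2, which maintains quiescence and the expression of homing receptors, was at 2626, 1673 and 2755 in resting and 375, 445 and 208 in activated cells, and fell by 2.75 (SE 0.47, adjusted p = 0.000794). Pik3ip1, which inhibits PI3K, fell by 2.42 (SE 0.40, adjusted p = 0.000693), from 495, 492 and 729.5 to 101, 117 and 65.4. Rasa3, a Ras GTPase-activating protein, fell by 2.26 (SE 0.36, adjusted p = 0.000475), from 1343, 855 and 1008 to 217, 264 and 155. In each of these 3 genes the highest activated value was far below the lowest resting value. Ccng2, encoding the unconventional cyclin G2, fell by 2.63 (SE 0.50, adjusted p = 0.00179; 0.0575 without both arrays numbered 3). The members that rose included Slfn2, a Schlafen family gene of T cell quiescence, by 2.43 ± 0.32 (adjusted p = 7.32e-05).

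Other large falls were those of genes outside the lists. Itih5, a hyaluronan-binding matrix protein, fell by 2.45 (SE 0.47, adjusted p = 0.00195), Nipal3, a predicted magnesium transporter, by 2.38 (SE 0.28, adjusted p = 2.85e-05), and Ripor2, which acts in T cell polarity, by 2.37 (SE 0.40, adjusted p = 0.000712). Narf, which binds prelamin A, fell by 2.26 (SE 0.34, adjusted p = 0.00031), from 209, 190.3 and 221 to 29.6, 46.7 and 18.8. Among the rises outside the lists, Cdk5r1 went from 33.4, 39.7 and 45.6 to 1569, 483 and 2690, a rise of 4.54 ± 0.66 (adjusted p = 0.000208). Its dimmer probe sets gave 3.85, 1.24 and 0.11.

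**Figure D2:**
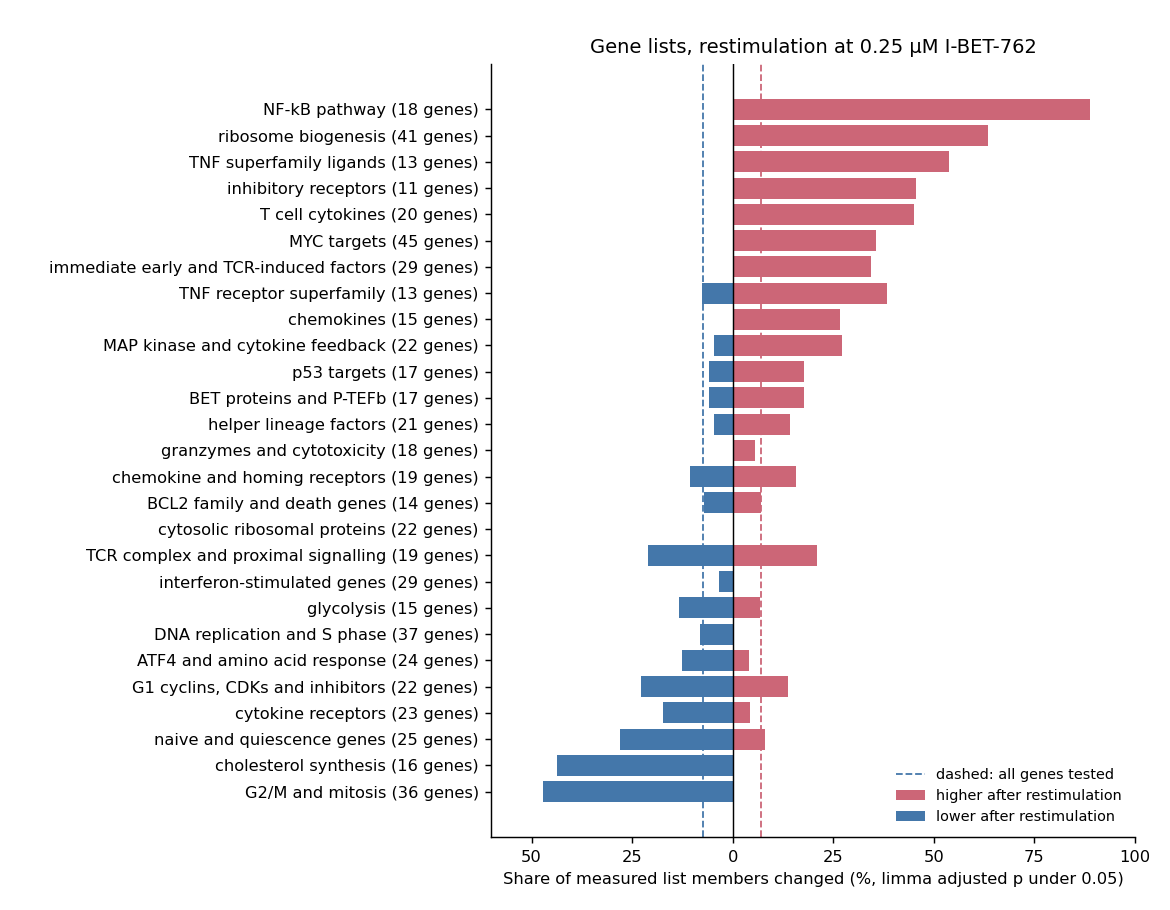
Share of the measured members of each gene list that changed on restimulation at 0.25 µM I-BET-762, with rises to the right in red and falls to the left in blue; dashed lines give the shares over all 18193 genes (7.05% and 7.39%). NF-kB pathway genes (16 of 18) have the largest share of rises, and G2/M genes (17 of 36) the largest share of falls.

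Genes for making ribosomes rose while ribosomal protein genes did not pass. Among the 41 genes of ribosome biogenesis there were 26 rises and 0 falls (median 0.68), 63.4% against the 7.05% of all genes that rose. For 39 of the 41 the arrays did not overlap, against 34.9% of all genes. Nle1, a 60S assembly factor, went from 211, 206 and 227 to 373, 412 and 469, by 0.91 ± 0.16 (adjusted p = 0.000993). Rcl1, a pre-rRNA processing factor of the 40S pathway, rose by 1.5 ± 0.29 (adjusted p = 0.00202), Bysl, another 40S factor, by 1.06 ± 0.21 (adjusted p = 0.00209), and Grwd1, a ribosome and histone chaperone, by 2.08 ± 0.45 (adjusted p = 0.00409). Without both arrays numbered 3, 1 of 41 passed, at a median of 0.62 and with fewer arrays to test on. The calls of Rcl1 (adjusted p = 0.0548), Bysl (0.061) and Grwd1 (0.1) were then lost. Of 45 MYC targets, 16 rose and 0 fell (median 0.33), among them Aimp2, a scaffold of tRNA synthetases (0.65 ± 0.12, adjusted p = 0.00122), Ccnd2, encoding cyclin D2 (1.32 ± 0.24, adjusted p = 0.00152), and Rrp12, a ribosome export factor (1.01 ± 0.21, adjusted p = 0.00387). Without both arrays numbered 3, 3 of the 45 passed, at a median of 0.28. Of 22 cytosolic ribosomal protein genes 0 passed; the one with the smallest p was Rps6, at -0.17 ± 0.091 (adjusted p = 0.231).

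Mitotic genes moved in 1 direction. Of 36 genes of G2/M and mitosis, 17 fell and 0 rose, 47.2% against the 7.39% of all genes that fell, with a median of -0.54. Cenpf, of the kinetochore, went from 1090, 1049 and 907 to 440.1, 501 and 378, and fell by 1.18 (SE 0.23, adjusted p = 0.0021). Bub1, a kinase of the spindle checkpoint, fell by 0.89 (SE 0.18, adjusted p = 0.00309), Ccnb2, encoding cyclin B2, by 0.91 (SE 0.19, adjusted p = 0.00392), and Tpx2, a spindle assembly factor, by 0.92 (SE 0.20, adjusted p = 0.004). For these genes every activated array was below every resting array. Without both arrays numbered 3 the median was -0.53, with 2 of 36 past the threshold. Of 37 genes of DNA replication, 3 fell and 0 rose (median -0.18), 8.11% against the 7.39% of all genes that fell, and 1 fell without both arrays numbered 3. The clamp loader subunit Rfc2 fell by 0.59 (SE 0.12, adjusted p = 0.00261), the polymerase subunit Pold1 by 0.86 (SE 0.20, adjusted p = 0.00748) and the licensing factor Cdt1 by 0.44 (SE 0.11, adjusted p = 0.0124). Without both arrays numbered 3 the calls of Pold1 (adjusted p = 0.0941) and Cdt1 (0.105) were lost. That of Cdt1 was also lost with all its probe sets averaged (0.134).

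Regulators of G1 moved in both directions, 3 up and 5 down of 22 (2 and 1 without both arrays numbered 3). Besides Ccnd2, Ccne2, encoding cyclin E2, rose by 1.17 ± 0.23 (adjusted p = 0.00202). Rb1, the retinoblastoma protein that holds cells in G1, fell by 0.75 (SE 0.14, adjusted p = 0.00166), and Cdkn1b, encoding the CDK inhibitor p27, by 1.95 (SE 0.43, adjusted p = 0.00481), from 1107, 1314 and 2420 to 411, 478 and 281. The activated values of Cdkn1b lay below the resting ones on every array. Its adjusted p was 0.128 without both arrays numbered 3.

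Among metabolic genes, those of cholesterol synthesis moved in 1 direction. Of 16 measured, 7 fell and 0 rose, with a median of -0.83. The mevalonate pathway enzyme Mvd went from 828, 813 and 639 to 251, 288 and 146, and fell by 1.71 (SE 0.39, adjusted p = 0.00559). The cyclase Lss and the sterol dehydrogenase Nsdhl were at -1.43 ± 0.40 (adjusted p = 0.0197) and -1.13 ± 0.33 (adjusted p = 0.0259), and each lost the call under 5 of 18 alternatives. Without both arrays numbered 3 none of the 16 passed, although the median was -0.96. Of 15 glycolysis genes, 1 rose and 2 fell, 20.0% against 14.4% of all genes. The hexokinase Hk2 rose from 3179, 3078 and 2779 to 7763, 6959 and 6911, by 1.26 ± 0.11 (adjusted p = 1.06e-06), while its relative Hk1 fell by 0.62 (SE 0.14, adjusted p = 0.00662) and the glucose transporter Slc2a3 by 0.92 (SE 0.17, adjusted p = 0.0014). The stress response driven by ATF4 had 1 rise and 3 falls among 24 genes, 16.7% against 14.4% of all genes, and 0 and 1 without both arrays numbered 3. Its pseudokinase Trib3 went from 1183, 1119 and 1115 to 298, 367 and 296, and fell by 1.79 (SE 0.37, adjusted p = 0.00307). Ddit3, the stress factor CHOP, was at -1.49 ± 0.39 (adjusted p = 0.0142; lost under 4 of 18 alternatives), and Vldlr, a lipoprotein receptor, at -1.16 ± 0.32 (adjusted p = 0.0202; lost under 6).

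Of 17 genes of BET proteins and P-TEFb, the machinery that I-BET-762 acts on, 3 rose and 1 fell, 23.5% against 14.4% of all genes; without both arrays numbered 3, 0 passed. Supt6, a histone chaperone of elongating polymerase, rose by 0.59 ± 0.12 (adjusted p = 0.00317), and Aff4, the scaffold of the super elongation complex, by 0.81 ± 0.19 (adjusted p = 0.00649), with -0.11 and -0.063 by its dimmer probe sets. Nelfe, a subunit of the pausing factor NELF, was at -0.53 ± 0.15 (adjusted p = 0.0203; lost under 5 of 18 alternatives). Hexim1, the P-TEFb inhibitor whose level is widely used as a readout of BET inhibition, was at 1510, 1443 and 802 in resting and 1973, 1866 and 1709 in activated cells; its rise of 0.61 ± 0.19 (adjusted p = 0.0376) lost the call under 9 of 18 alternatives. Brd2 was at 0.36 ± 0.15 (adjusted p = 0.134).

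Survival and stress genes gave isolated calls. Bcl2l1, encoding the survival protein BCL-XL, rose from 1691, 1491 and 1365 to 4143, 3092 and 4841, by 1.38 ± 0.25 (adjusted p = 0.00119), while Bcl2 fell by 0.70 (SE 0.17, adjusted p = 0.00736). That call was lost with all its probe sets averaged (-0.39, adjusted p = 0.285), 2 of which gave 0.16 and 0.19, and without both arrays numbered 3 (0.0652). The other 12 of 14 family genes did not pass, so 14.3% of the family changed, against 14.4% of all genes. Of 17 p53 targets, 3 rose and 1 fell, 23.5% of the list (1 and 1 without both arrays numbered 3). Mdm2, the ubiquitin ligase of p53, was at 0.63 ± 0.14 (adjusted p = 0.00524). The death receptor Tnfrsf10b was at 0.53 ± 0.14 (adjusted p = 0.0173, lost under 6 of 18 alternatives) and Sesn1, a stress-induced inhibitor of mTORC1, at -1.15 ± 0.20 (adjusted p = 0.00111). Of 29 interferon-stimulated genes only Ifit2 changed (3.45% of the list), at -1.03 ± 0.25 (adjusted p = 0.00908, and 0.0507 without both arrays numbered 3).

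The response at 0.25 µM was then set beside the other responses, a comparison that asks whether priming with the lower concentration altered what restimulation does. Cells primed with Control-768 changed 3640 genes (20.0%; 8.86% higher and 11.2% lower), those at 0.5 µM 4229 (23.2%; 10.5% and 12.7%) and those with DMSO 3782 (20.8%; 9.10% and 11.7%). Of the 2628 genes changed at 0.25 µM, 2369 were also changed with Control-768, which is 90.1% of the former and 65.1% of the latter list, and all 2369 in the same direction. Of the 2628, 2263 were changed at 0.5 µM, or 86.1% and 53.5% of each list. The changes correlated over genes, which are not independent replicates, with r = 0.900 for Control-768 and 0.874 for 0.5 µM. A difference in counts does not show a difference in response, so the difference itself was tested for each gene as an interaction.

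**Figure D3:**
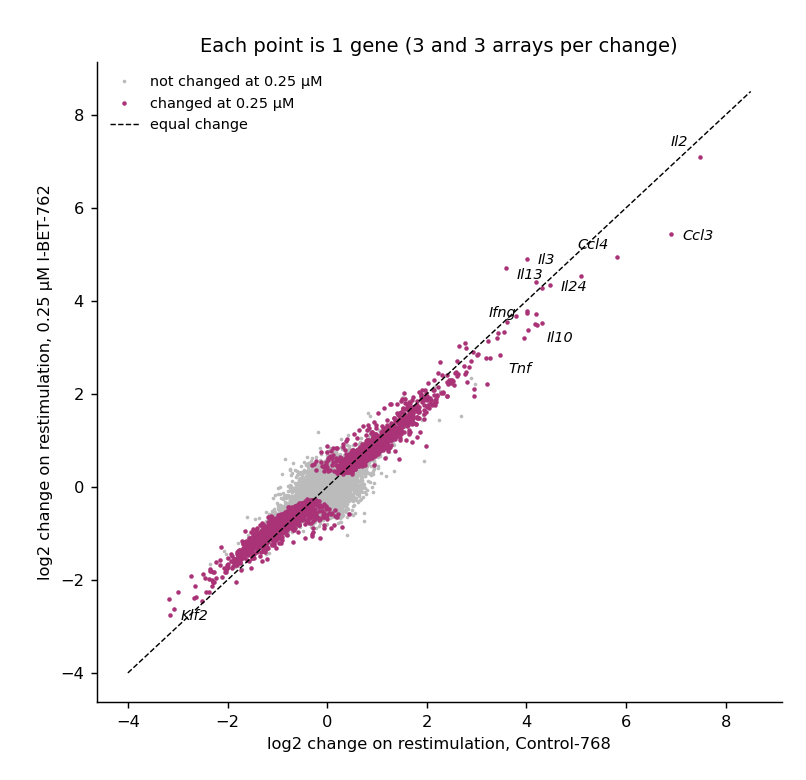
Log2 change on restimulation of each of the 18193 genes in cells primed with 0.25 µM I-BET-762 against that in cells primed with Control-768, each from 3 activated and 3 resting arrays. The 2628 genes changed at 0.25 µM are coloured, and the dashed line marks equal changes; the points follow the line (r = 0.900 over genes), with Il2 at 7.10 and 7.48 and Klf2 at -2.75 and -3.16.

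No gene passed in the difference between the 0.25 µM and the Control-768 response by limma (0 of 18193, 0%), and 427 (2.35%) had an unadjusted p under 0.05. That share is below the 0.05 such a threshold gives on average when no gene differs. The absence of calls did not show that the responses were alike for every gene. The 95% interval of the difference lay within 2-fold in either direction for 14761 genes (81.1%), but for only 184 (43.4%) of the 424 genes that rose at least 2-fold and 167 (47.7%) of the 350 that fell at least 2-fold. These p-values and intervals, and those below, come from the fit without a replicate block, although numbers pair treatments within a state. With a block within each state, chosen after seeing the data, 0 genes passed by limma and 678 had an unadjusted p under 0.05. The estimates leaned toward a smaller response at 0.25 µM: of those 424 genes, 298 had a smaller rise than with Control-768 and 126 a larger one (median difference -0.10), and of the 350, 296 had a smaller fall (median 0.19). These genes were selected for their change at 0.25 µM, which by itself moves such medians toward a larger response there, and no test was made of the lean.

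Among the cytokines, the difference from Control-768 was -0.38 for Il2 (95% interval -2.16 to 1.40), -0.47 for Ifng (-1.68 to 0.75), -0.63 for Tnf (-1.86 to 0.59) and -0.67 for Il10 (-2.69 to 1.35). For Csf2 it was -0.73 (-3.53 to 2.06), for Il21 -0.19 (-1.32 to 0.95), for Il24 -0.14 (-1.20 to 0.91) and for Il3 0.90 (-2.20 to 3.99). All of these intervals include both no difference and a change of 1.5-fold or more. The wide ones of Csf2 and Il3 go with the high arrays numbered 3. For Il3 the resting Control-768 array numbered 3 also stood far below the others of its group. Levels differed between the compounds in some of these genes. Il24 with Control-768 was at 98, 107 and 37.3 in resting and 2464, 2012 and 1604 in activated cells, so each 0.25 µM array was below each Control-768 array in both states. Il3 with Control-768 was at 149, 171 and 3.54 in resting and 334, 1219 and 5785 in activated cells, and on the arrays numbered 1 and 2 the resting level was far above the 2.53 and 6.0 at 0.25 µM.

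For Ccl3 the difference was -1.49 (-3.12 to 0.15, unadjusted p = 0.0724), and for the chemokine Ccl4 it was -0.86 (-2.36 to 0.63). Tbx21 had the most precise estimate of the fixed genes, a difference of -0.40 with an interval of -0.81 to -0.0027 (unadjusted p = 0.0486, adjusted p = 1). Its rise was 1.64 with Control-768, 1.23 at 0.25 µM and 0.91 at 0.5 µM. Resting Tbx21 with Control-768 was at 1041, 1099 and 1321 against 1578, 1531 and 1656 at 0.25 µM, without overlap, while the activated values of 3550, 3969 and 3334 overlapped the 4041, 3387 and 3878 at 0.25 µM. For Hexim1 the difference was -0.13 (-0.70 to 0.43) and for Myc 0.18 (-1.67 to 2.03).

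The genes with the smallest p in that comparison were mostly dim. Higher at 0.25 µM were Ptgdr, a prostaglandin D2 receptor (1.11, interval 0.59 to 1.63), Gpm6a, a neuronal membrane protein (0.86), and Paqr8, a progestin receptor (0.60). Lower were Zbtb10, a zinc finger repressor (-0.96, interval -1.41 to -0.51), Rgs9bp, an anchor of RGS proteins (-1.02), and Diras2, a small GTPase (-1.29). None had an intensity above 70 on any 0.25 µM array, and the adjusted p was 1 for all of them. Among genes that changed at least 2-fold at 0.25 µM without a call with Control-768, Pard6g, a polarity protein, fell by 1.02 (SE 0.23, adjusted p = 0.00629), from 249.7, 296 and 302 to 100.4, 141 and 156, and the tetraspanin Tspan5 rose by 1.06 ± 0.25 (adjusted p = 0.008). Their changes with Control-768 were -0.31 and 0.60, and neither difference passed (unadjusted p = 0.0449 and 0.212). The Tspan5 call at 0.25 µM was lost under 3 of 18 alternatives, with an adjusted p of 0.151 without both arrays numbered 3.

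**Figure D4:**
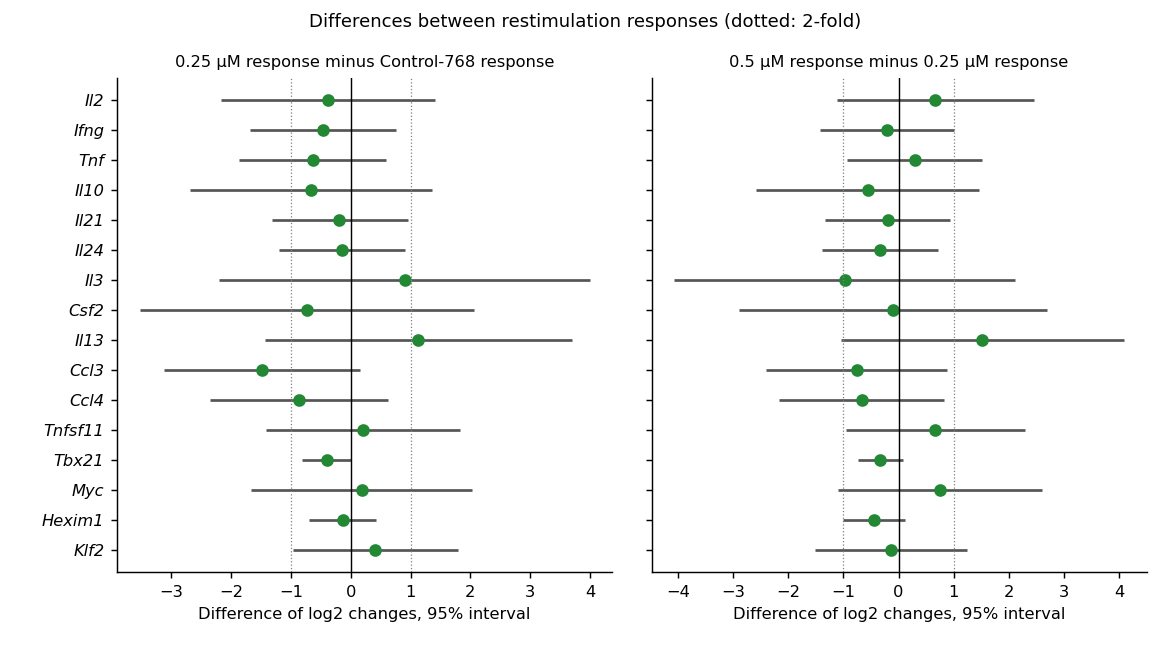
Difference between restimulation responses for 16 genes, with 95% intervals from limma without a replicate block: the 0.25 µM minus the Control-768 response on the left, and the 0.5 µM minus the 0.25 µM response on the right, in log2 units. Dotted lines mark 2-fold in either direction; every interval on the left but that of Tbx21 (-0.81 to -0.0027) includes 0.

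Between the concentrations, 0 of 18193 genes (0%) passed by limma and 562 (3.09%) had an unadjusted p under 0.05, again a share below 0.05. This comparison shares the 0.25 µM arrays with the one against Control-768. Its p-values and intervals also come from the fit without a replicate block. With a block within each state 0 genes passed by limma and 1354 had an unadjusted p under 0.05. The interval of the difference, 0.5 µM minus 0.25 µM, lay within 2-fold for 14122 genes (77.6%). It was 0.67 for Il2 (-1.11 to 2.45), and the interval of each of the 8 cytokine genes named above included 0. The smallest p among higher values belonged to Hoxd1, a homeobox gene, Afap1l1, an actin adaptor, and Pcsk4, a proprotein convertase, and among lower ones to Gsdmcl2, a gasdermin, Ch25h, the cholesterol 25-hydroxylase, and Rnf17, a RING finger gene. Of these 6 only Pcsk4 had intensities above 20 at 0.25 µM: it fell by 1.02 there (-1.02 ± 0.20, adjusted p = 0.00244), from 494, 425 and 389 to 200.1, 258 and 168, and was at 0.11 at 0.5 µM.

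Some lists had larger medians at 0.5 µM than at 0.25 µM. For ribosome biogenesis the median change was 0.88 with Control-768, 0.68 at 0.25 µM and 1.32 at 0.5 µM, for MYC targets 0.37, 0.33 and 0.78, and for G2/M genes -0.65, -0.54 and -0.95. The median difference between the concentrations was 0.56 for ribosome biogenesis, 0.31 for MYC targets and -0.36 for G2/M genes, with 0 members past the threshold in each. Without the arrays numbered 3 of the compared groups these medians were 0.16, 0.09 and -0.04. The mean log2 level of the 41 ribosome biogenesis genes was 10.26, 10.43 and 9.35 in resting cells at 0.5 µM and 10.50, 10.50 and 10.23 at 0.25 µM, so the resting 0.5 µM array numbered 3 stood far below the others. For NF-kB genes the medians were close, at 1.47, 1.31 and 1.45. Those of cholesterol synthesis were -0.93, -0.83 and -1.11.

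**Figure D5:**
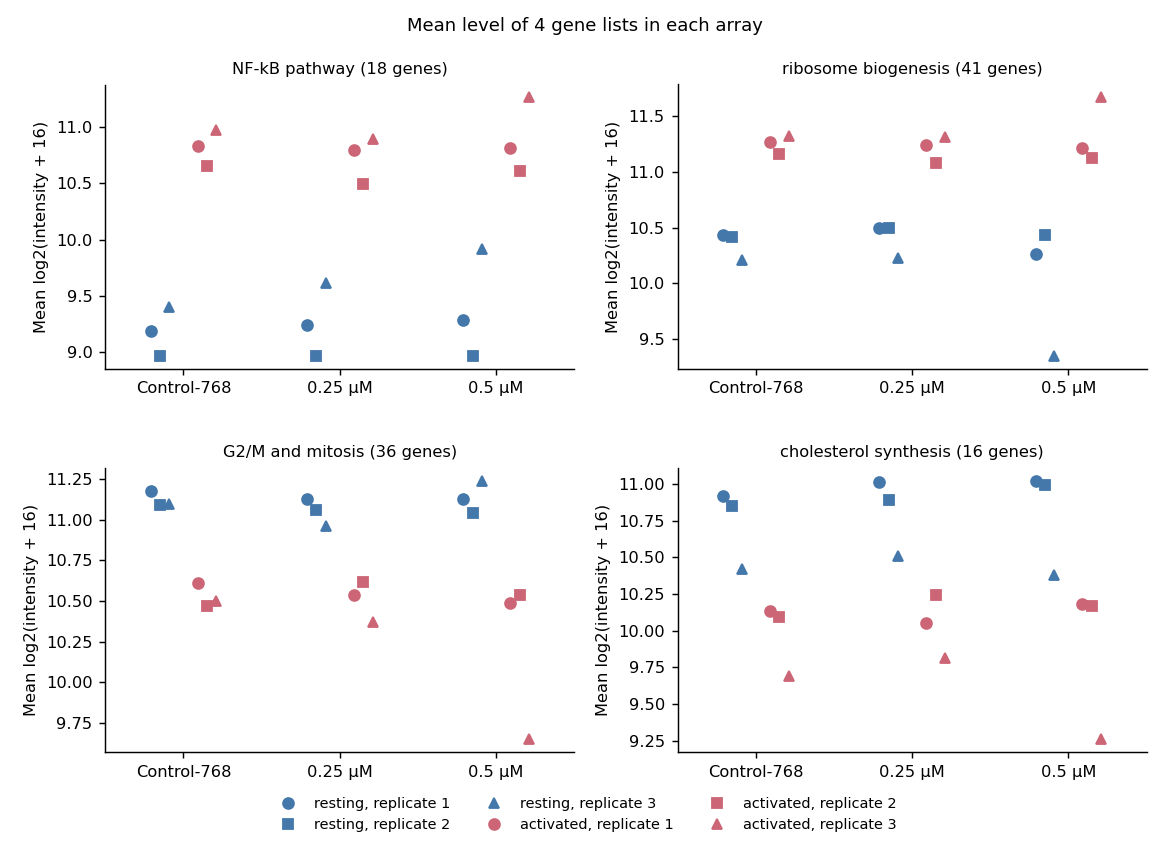
Mean of log2(intensity + 16) over the members of 4 gene lists in each array, by priming compound (Control-768, or I-BET-762 at either concentration). Blue points are resting and red points activated arrays, with a symbol for each replicate number. The states separate in all 4 lists at 0.25 µM, and the ribosome biogenesis level of the resting 0.5 µM array numbered 3 (9.35) and the G2/M level of the activated one (9.65) stand apart from the rest.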

How the data were processed

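RNA of 24 samples was measured, each on its own Affymetrix mouse array. The authors deposited 1 linear intensity for each of 45101 probe sets; the sources used here name no summary or normalization method. Per the labels' protocols, RNA went through 2 rounds of amplification before labelling. Of the probe sets, 34945 had 1 gene symbol in the platform annotation, 932 had several, 9160 had none and 64 were array controls. Each gene took the probe set with the highest mean log2(intensity + 16), leaving 18193 genes (9010 with a choice of probe sets). limma 3.58.1 (R 4.3.3) fitted 8 group means to all 24 arrays (16 residual and 3.59 prior degrees of freedom). Tests were two-sided, with Benjamini-Hochberg adjustment over all genes and interactions as contrasts of contrasts. The number of arrays limits precision; with 3 a group, the median 95% interval reached 0.39 log2 to either side for the restimulation change and 0.55 for a difference of responses.

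The comparison, gene lists and named genes were chosen with earlier results of these data known. Named were 11 genes whatever their values, the 8 largest rises and falls without overlap, the 3 genes with the smallest p in each direction of each difference, and up to 3 changed genes with the smallest p for each list; placeholder symbols were passed over. Il4, Il17a, Lta, Cd70, Rel, Nfkbia, Nr4a3, Egr2, Cdkn1b, Grwd1, Ifngr1, Il2ra, Tpx2, Brd2, S1pr1, Pard6g, Tspan5, Avil and Pdcd1 were named after their values were seen. Deviations from the group means of same-numbered resting and activated arrays at 0.25 µM correlated at 0.115, 0.032 and 0.113, so numbers were not taken to pair the states. Within a state, those of 0.25 µM and another treatment correlated at 0.154 to 0.62, so numbers pair treatments there, from the data and not from the labels. Alternatives changed the added constant, normalization, probe set choice, dim genes, spread, replicate block, control group and the arrays used. The model was run on simulated data with independent noise on each array. These lacked the deviations shared by same-numbered arrays and the wider spread of arrays numbered 3, so that run cannot speak to either. Promoter windows of 14452 genes came from RefSeq.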

Additional observations from a re-analysis of the deposited data

How the results depend on the processing

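The restimulation count was 2278 with an added constant of 1, 2913 with 64, 2996 after quantile normalization, 3122 without dim genes, 2517 with the mean of all probe sets, 2572 without cross-matching probe sets, 2682 with an intensity trend and 2349 from the compared groups alone. Leaving out 1 array gave 1369 to 2155 genes, 668 to 1075 of them higher and 701 to 1080 lower, and leaving out both arrays numbered 3 gave 715 (309 higher, 406 lower), of which 695 were among the 2628. Same-numbered resting and activated arrays share only a number as far as the labels say, although each resting array at 0.25 µM correlated best with the activated array of its own number. A replicate block gave 3718 genes over all 24 arrays, with all 2628 among them, 1681 higher and 2037 lower. Within the compared groups alone it gave 1675 (683 higher, 992 lower; 1388 shared), and as a random block 2896. The difference from Control-768 had 0 calls under all 27 alternatives, DMSO as the control among them. That between concentrations had 0 under all 25 but one: without arrays numbered 3, 1 gene was called, the actin binder Avil, as lower. A replicate block within each state, chosen after seeing the data, gave 0 calls in both, with 678 and 1354 genes at an unadjusted p under 0.05. Paqr8, called in restimulation, was at -0.088 with the mean of all probe sets. Of the named changed genes, 53 of 108 lost the call under some alternative, and 14 of their 103 other probe sets pointed the other way; the cause was not tested. Of 13 named genes without a call, 6 gained one under some alternative, among them Il2ra, Il4 and Lta.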
